A study of Mus musculus with 2 samples.

Results

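The 9 mouse gasdermin genes considered here are Gsdma, Gsdma2, Gsdma3, Gsdmc, Gsdmc2, Gsdmc3, Gsdmc4, Gsdmd and Gsdme. They were taken by symbol from the 34745 genes of a count table of ear skin RNA. The table holds 1 library labelled WT and 1 labelled KAT8 cKO, a conditional knockout of the histone acetyltransferase gene Kat8. Mice of both labels had 30 mg of a cream with 5% imiquimod put on each ear on each of 3 days, and the ears were taken on day 4. Imiquimod activates the receptor TLR7 and brings on a psoriasis-like inflammation in mouse skin. The strain, age and sex, the number of mice behind a library, and the promoter or cell type of the knockout were not stated in the labels. With 1 library per label there was no replicate and no test. Every interval below is an exact 95% interval for counting error, and every difference describes these 2 libraries, not the genotypes.

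Gasdermins are cytosolic proteins with a pore-forming amino-terminal part held inactive by a carboxy-terminal part. When a protease cuts the linker between them, the freed part inserts into the cell membrane and forms pores through which mature IL-1 family cytokines leave the cell, and the cell can die by pyroptosis. The family is spread over barrier epithelia and leukocytes. The A genes are known from epidermis, hair follicle and the upper gut, the C genes from skin and gut epithelium, Gsdmd from macrophages, neutrophils and many epithelia, and Gsdme from many tissues. The mouse lost the gene for gasdermin B, and its A and C genes were copied in tandem, so reads of the copies could be assigned to the wrong member.

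The A copies lie side by side on chromosome 11 (GRCm38) on the plus strand, Gsdma3 from 98626360 to 98638226, Gsdma2 from 98646759 to 98657964 and Gsdma from 98664351 to 98677708. Between Gsdma and Gsdma3 the coding sequences were 89.8% identical over 1334 aligned bases, and between Gsdma and Gsdma2 90.9% over 1324. The C copies lie on the minus strand of chromosome 15, Gsdmc from 63775968 to 63808759, Gsdmc2 from 63824346 to 63845177, Gsdmc3 from 63857724 to 63878558 and Gsdmc4 from 63891264 to 63912297. Gsdmc2 and Gsdmc3 were 97.1% identical over 1440 aligned bases, whereas Gsdmc was 87.0% identical to Gsdmc2. Gsdmd, on chromosome 15 from 75862327 to 75867408 on the plus strand, and Gsdme, on chromosome 6 from 50188888 to 50263862 on the minus strand, have no close copy. Their coding sequences were 59.1% identical to each other. None of the 9 genes had exon bases in common with any other listed gene.

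The stretches that follow, from GENCODE M21 transcripts, show how far reads could tell the copies apart. In the most alike stretch of 60 coding bases, Gsdma (bases 847 to 906 of its coding sequence), Gsdma2 (838 to 897) and Gsdma3 (874 to 933) have the same letters, so a read inside it names none of them.
Gsdma, Gsdma2 and Gsdma3: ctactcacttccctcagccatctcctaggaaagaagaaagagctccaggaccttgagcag
In the most different aligned stretch without gaps, at bases 466 to 525 of all 3 coding sequences, Gsdma2 differs from Gsdma at 17 bases and Gsdma3 at 18, in capitals.
Gsdma: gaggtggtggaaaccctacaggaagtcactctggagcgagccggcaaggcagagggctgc
Gsdma2: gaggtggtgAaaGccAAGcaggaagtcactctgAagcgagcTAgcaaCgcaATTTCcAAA
Gsdma3: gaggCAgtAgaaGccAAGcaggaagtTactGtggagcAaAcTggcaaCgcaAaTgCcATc
The C copies also share a stretch of 60 coding bases without a difference, at bases 1220 to 1279 in Gsdmc2, Gsdmc3 and Gsdmc4 and 1223 to 1282 in Gsdmc.
Gsdmc, Gsdmc2, Gsdmc3 and Gsdmc4: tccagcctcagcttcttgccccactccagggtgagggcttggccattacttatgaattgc
Their most different stretch, with capitals where a copy differs from Gsdmc2, holds 10 differences in Gsdmc3, 13 in Gsdmc4 and 7 in Gsdmc.
Gsdmc2: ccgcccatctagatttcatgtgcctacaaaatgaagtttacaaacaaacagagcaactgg
Gsdmc3: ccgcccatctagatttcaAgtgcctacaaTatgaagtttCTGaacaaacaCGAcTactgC
Gsdmc4: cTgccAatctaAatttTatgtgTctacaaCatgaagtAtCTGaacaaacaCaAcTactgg
Gsdmc: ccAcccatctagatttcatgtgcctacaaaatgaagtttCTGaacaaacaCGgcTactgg

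Over whole transcripts, the A genes were easier to tell apart than Gsdmc2, Gsdmc3 and Gsdmc4. Of all windows of 50 bases in the transcript with the longest coding sequence, 8.26% of Gsdma, 10.1% of Gsdma2 and 5.25% of Gsdma3 occurred letter for letter in a transcript of another gene. For Gsdmc this share was 16.4%, and for Gsdmc2, Gsdmc3 and Gsdmc4 it was 48.5%, 46.9% and 39.0%. At 150 bases no window of an A gene was shared, against 16.6% for Gsdmc2, 19.3% for Gsdmc3 and 3.15% for Gsdmc. Gsdmd and Gsdme shared none at any length. The read length and the handling of reads with several matches were stated nowhere in the labels. Single values of Gsdmc2, Gsdmc3 and Gsdmc4 are therefore uncertain, and sums over copies are given beside them.

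**Figure D1:**
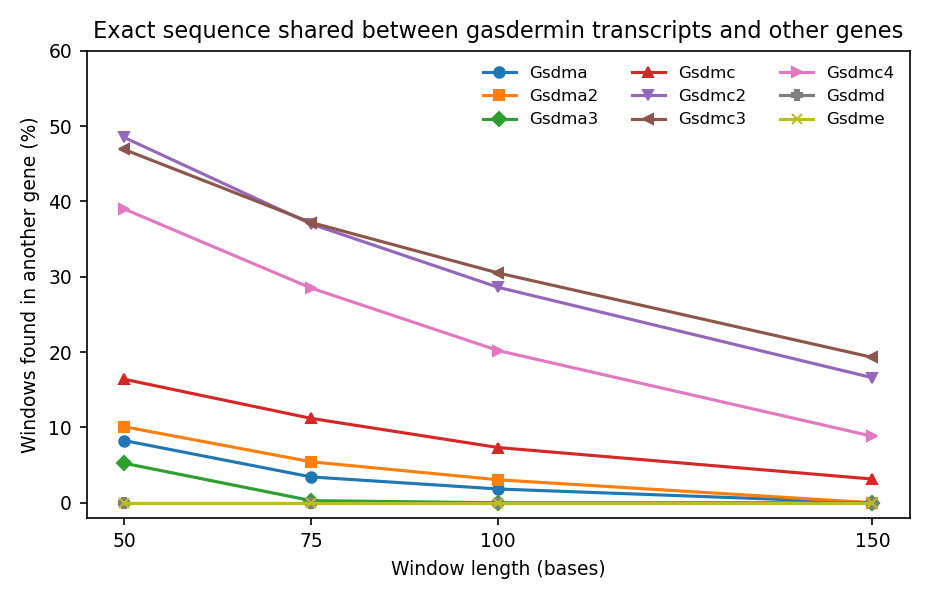
Share of all windows of a gasdermin transcript (vertical axis, percent) that occur exactly in a transcript of another gene, for windows of 50, 75, 100 and 150 bases (horizontal axis), 1 line per gene. Gsdmc2, Gsdmc3 and Gsdmc4 lie highest, at 48.5%, 46.9% and 39.0% for 50 bases, and Gsdmd and Gsdme stay at 0.

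The libraries held 12179608 (WT) and 13727524 (cKO) counts on genes, so that 1 count was 0.0868 and 0.0689 scaled counts per 1000000 (CPM). Kat8 itself was not reduced under the cKO label (219 and 351 counts, ratio of CPM 1.27, interval 1.07 to 1.51), so the libraries are called by their labels throughout, with values given under the WT label or under the cKO label. This value covers all exons and all cells of the ear, also those a conditional deletion may spare. Xist, expressed from the silenced X chromosome of female cells, had 11891 and 6 counts, and the Y-linked gene Eif2s3y had 0 and 838. These are the counts of female tissue under the WT label and of male tissue under the cKO label. Sex and label therefore cannot be told apart in any difference below. Skeletal muscle markers summed to 10274 and 1386 CPM, adipocyte markers to 2652 and 191 CPM, and red cell markers to 172 and 9.03 CPM. By the 2-fold rule given below, 7 of 7, 6 of 7 and 6 of 6 of them were lower under the cKO label. Fibroblast markers summed to 3509 and 4473 CPM, with 1 of 8 higher and 2 lower. Markers of tissue other than epidermis therefore differed too, and the part of blood in the values below was not tested. In whole tissue, fewer cells of a type and less RNA per cell cannot be told apart.

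Gasdermin RNA under the WT label was mostly that of Gsdma, Gsdmc and Gsdmd. Per kilobase of transcript, Gsdma was at 27.0 CPM (interval 25.2 to 28.9), Gsdmc at 26.7 (24.8 to 28.7) and Gsdmd at 20.2 (18.3 to 22.2). The intervals of Gsdma and Gsdmc overlapped, so these neighbours in the order were not separated at this depth, and Gsdmd lay below both. Gsdme at 3.54 CPM per kilobase and Gsdmc2 at 3.37 followed, with intervals that overlapped (2.89 to 4.30 and 2.69 to 4.18). Gsdma3 was at 0.353 (0.129 to 0.767). Gsdmc4 had 1 count, and Gsdma2 and Gsdmc3 had none, which allows up to 3 counts or 0.260 CPM.

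Under the cKO label Gsdmd lay above Gsdmc, by a gap that depended on the length used. Gsdma was again highest at 15.0 CPM per kilobase (13.9 to 16.3), followed by Gsdmd at 12.7 (11.3 to 14.1) and Gsdmc at 8.51 (7.57 to 9.53). The intervals of Gsdma and Gsdmd overlapped narrowly, and that of Gsdmc lay below both. Over the merged exons of all its transcripts, however, Gsdmd was at 9.54, next to the upper limit of Gsdmc. Gsdma3 was at 3.31 (2.59 to 4.18), level with Gsdmc2 at 2.93 (2.36 to 3.60) within counting error. Gsdme was at 2.01 (1.58 to 2.53), an interval that overlapped that of Gsdmc2 but not that of Gsdma3. The level of Gsdme depends most on the length used, since the exons of all its transcripts merge to 12742 bases, and over that length it was at 0.695 and 0.395 CPM per kilobase.

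**Figure D2:**
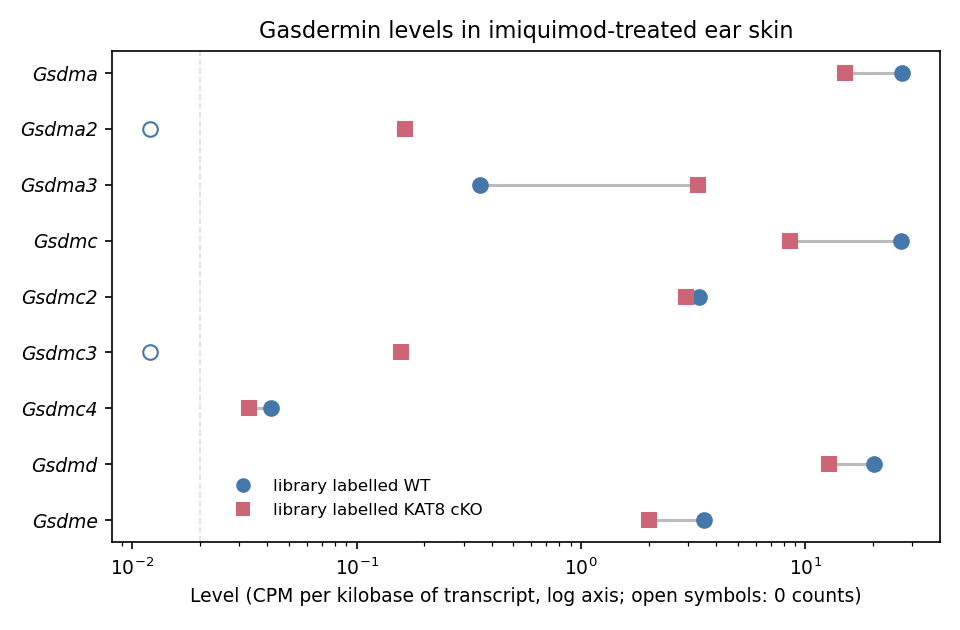
Level of each gasdermin gene in CPM per kilobase of its transcript with the longest coding sequence (horizontal log axis), with circles for the library labelled WT and squares for the library labelled KAT8 cKO, 1 library each. Open circles left of the dashed line mark Gsdma2 and Gsdmc3 at 0 counts. The squares lie left of the circles for Gsdma, Gsdmc, Gsdmd and Gsdme, and right of the circle for Gsdma3.

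Genes with 1 CPM or more under either label were counted as measured, which left 6 of the 9, and Gsdma2, Gsdmc3 and Gsdmc4 were not. A measured gene was counted as higher or lower past 2-fold, where log2 of (cKO CPM + 1) over (WT CPM + 1) reached 1 or -1. By this rule Gsdma3 was higher and Gsdmc lower under the cKO label, and the other 4 lay within 2-fold. Among all 15240 measured genes 4.56% were higher, 8.63% were lower and 13.2% were either, which leaves little to read from a count of 2 in 6. These shares are also the background for the counts of higher and lower genes in each list. The higher and lower genes numbered 695 and 1315, or 961 and 1056 among the same genes with plain CPM. Log2 ratios were below 0 for 5 of the 6 gasdermin genes, with a median of -0.68, and for 49.4% of all measured genes, with a median of 0.01. With plain CPM the median of all genes was 0.16, and each of the 6 ratios stayed on its side of 1. All 9 genes together had 2198 counts under the WT label and 1467 under the cKO label, 191 and 101 CPM.

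Gsdma3 was the only measured gasdermin higher under the cKO label. Mutations of this gene in mice cause hair loss with abnormal follicles and small sebaceous glands. It had 6 counts under the WT label and 71 under the cKO label, that is 0.521 and 4.89 CPM. The ratio was 9.39, but with so few counts the interval ran from 4.11 to 26.5. Its log2 ratio was 1.95. It passed the minimum of 1 CPM only under the cKO label, where it was high, so its place among the higher genes follows in part from that minimum. Within the A genes it took 0.702% of counts (interval 0.258 to 1.52) under the WT label and 10.6% (8.37 to 13.2) under the cKO label, a share that no scaling between libraries affects. Gsdma, the abundant gene of the same cluster, had fewer counts under the cKO label, where Gsdma3 had more.

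Sebaceous markers were higher in the same library. All 14 were measured, with 11 higher and none lower, and they summed to 827 CPM under the WT label and 4388 under the cKO label, with none at 0 in either. Awat2 and Mc5r among them passed the minimum of 1 CPM only under the cKO label. Hair follicle markers of the inner root sheath and shaft were scarce, with 7 of 14 measured, 2 higher and none lower. These counts depended on the pseudocount, with 3 higher and 1 lower at 0.5 CPM and 4 higher and 1 lower at 0.1 CPM. The lower one was Krt86, with 20 and 7 counts. These hair markers summed to 57.5 and 109 CPM, and Krt72 and Krt34 were at 0 in both libraries and Krt81 at 0 under the cKO label. Basal keratinocyte markers had 2 of 7 higher and summed to 22578 and 27198 CPM. The part of any of these cell types in the Gsdma3 difference was not tested.

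RefSeq (GRCm38.p6) promoter windows matched 3 of the 9 genes, Gsdma3, Gsdmc3 and Gsdme, and that of Gsdma3 is shown as the gene with the largest ratio. The 250 bases before its start, at chr11:98626099-98626348 on the plus strand, read as follows, with a match to an IRF motif in capitals.
Gsdma3: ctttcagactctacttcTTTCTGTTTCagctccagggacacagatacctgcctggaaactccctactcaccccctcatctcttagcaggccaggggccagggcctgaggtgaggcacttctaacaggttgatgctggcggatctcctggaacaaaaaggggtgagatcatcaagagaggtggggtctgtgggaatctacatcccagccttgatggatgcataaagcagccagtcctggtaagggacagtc
Each window was searched on both strands for 6 motifs, and the share among 32851 promoter windows of this length is given for each. The IRF motif, a pair of GAAA blocks 2 bases apart, occurs in 2.98% of windows and, of these 3 genes, only in Gsdma3. None of the 3 holds the STAT motif TTCNNNGAA, which 7.02% of windows have, or the AP-1 motif TGANTCA, which 6.75% have. The nuclear receptor motif AGGTCA occurs in 14% of all windows, the TATA box TATAAA in 12.4% and the E-box CACGTG in 6.02%, and none of them in these 3 genes. Such matches describe letters only.

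Gsdma, the main A gene of these specimens, was lower under the cKO label but within 2-fold. Gsdma is expressed in differentiating epidermis, and its product can be cut by a streptococcal protease. It went from 849 to 595 counts, 73.7 to 41.0 CPM, a ratio of 0.556 (interval 0.50 to 0.62). Gsdma2, a copy known from the stomach, had 0 and 4 counts, too few to tell the libraries apart, since the counting interval of the ratio reaches down to 0.524. The summed A genes went from 855 to 670 counts with a ratio of 0.622 (0.561 to 0.689), close to Gsdma alone because Gsdma made up 99.3% and 88.8% of them.

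Gsdmc was the only measured gasdermin at least 2-fold lower. Human gasdermin C is cut by caspase-8, and the gene is expressed in keratinocytes. Gsdmc had 739 counts under the WT label and 297 under the cKO label, 64.1 and 20.5 CPM. This is a 3.13-fold lower level (interval 2.74 to 3.60), and its log2 ratio of -1.60 lay at percentile 3.10 of all measured genes. Gsdmc2, known from gut epithelium, did not follow it, with 84 and 92 counts (7.29 and 6.34 CPM) and a ratio of 0.869 whose interval, 0.640 to 1.18, includes 1. Under the WT label there were 8.80 counts of Gsdmc for each count of Gsdmc2, and under the cKO label 3.23. The ratio between these values, a pair chosen after the counts were seen, was 0.367 (0.262 to 0.515). This interval does not cover the doubt about which copy the reads given to Gsdmc2 came from.

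The remaining C genes added little. Gsdmc3 had 0 and 5 counts, with a ratio that may be as low as 0.727 within counting error, and Gsdmc4 had 1 count in each. Summed to lessen the effect of reads shared among them, Gsdmc2, Gsdmc3 and Gsdmc4 had 85 and 98 counts and a ratio of 0.915 (0.677 to 1.24). All 4 C genes together went from 824 to 395 counts, a ratio of 0.381 (0.337 to 0.430). Gsdmc made up 89.7% (87.4 to 91.7) of them under the WT label and 75.2% (70.6 to 79.4) under the cKO label. The annotated pseudogenes Gsdmcl1, Gsdmcl2 and Gsdmcl-ps had 0 counts in both libraries.

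Gsdmd, the target of the inflammatory caspases and the pore through which macrophages release IL-1 beta, lay within 2-fold. It had 417 and 329 counts, 36.2 and 22.7 CPM, with a ratio of 0.626 (0.540 to 0.725). Neutrophil markers were lower in the same library, with 9 of 11 measured past 2-fold and none higher, and summed to 14371 CPM under the WT label and 5177 under the cKO label. None of them was at 0, though Elane and Mpo had at most 3 counts in each library. Monocyte and macrophage markers had 6 of 12 lower and none higher, summing to 2715 and 1069 CPM, with none at 0. With plain CPM or DESeq2 size factors 5 were lower. The members named next were picked after their values were seen. Cd14 (882 and 164 CPM) and Lyz2 (940 and 376 CPM) weighed most in these sums. Adgre1, Csf1r and Mrc1 had log2 ratios of -0.08, 0.13 and -0.17, and Ccr2 was at 0.58. In this list 10 of 12 log2 ratios were below 0. Dendritic and Langerhans cell markers went the other way, with 8 of 9 higher and sums of 111 and 317 CPM, and only Xcr1 was at 0, under the WT label. In these sums H2-Ab1 (56.9 and 166 CPM) and Epcam (35.3 and 100 CPM) weighed most. Flt3 and Batf3, counted as higher, passed the minimum of 1 CPM only under the cKO label, and with a minimum of 5 CPM 6 of 7 were higher. The part of these cells in the Gsdmd value was not tested. Set against Gsdma in the same library, Gsdmd had 0.491 counts per count of Gsdma under the WT label and 0.553 under the cKO label. For this pair, which was not planned, the difference was within counting error (1.13, interval 0.938 to 1.35).

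Gsdme, whose product can turn apoptosis into lytic death once it is cut, by granzyme B among others, was scarce. It had 102 and 73 counts, 8.85 and 5.03 CPM, with a ratio of 0.568 (0.415 to 0.775). The more distant family gene Pjvk, needed for hearing, had 0 counts in both libraries, as far as 3 counts or 0.260 and 0.207 CPM can show.

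**Figure D3:**
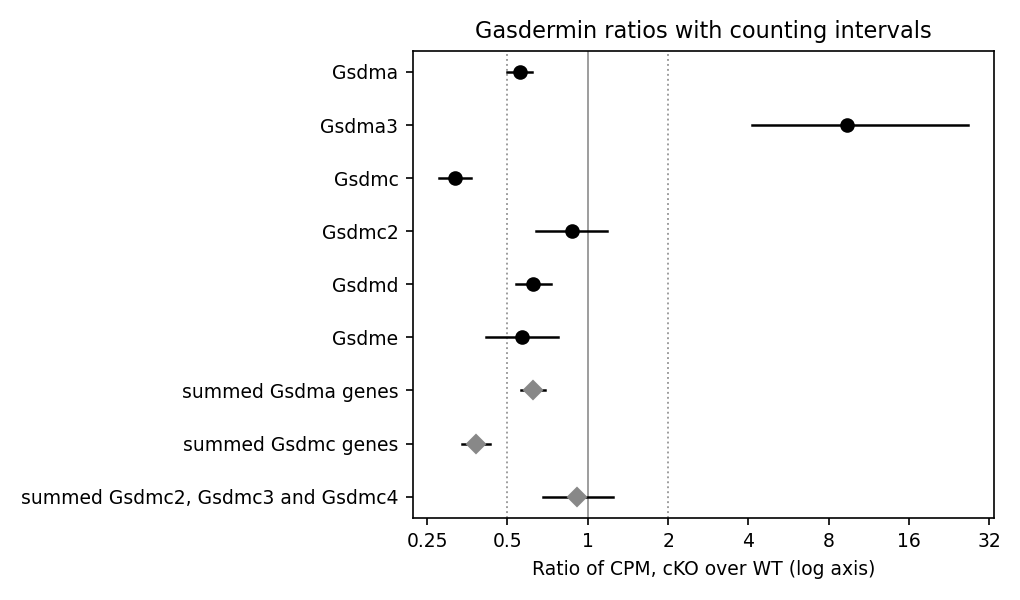
Ratio of CPM in the library labelled KAT8 cKO over the library labelled WT (horizontal log axis) for the 6 measured gasdermin genes (circles) and 3 sums over copies (diamonds), with exact 95% counting intervals as bars and dotted lines at 2-fold in either direction. Gsdma3 lies right of the 2-fold lines at 9.39 and Gsdmc left of them at 0.319, and the bar of Gsdmc2 crosses 1.

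Markers of the epidermal layers differed between the libraries, and the reference chosen decides how the skin gasdermins read. The suprabasal keratin genes Krt1 and Krt10 together were at 4627 and 1547 CPM, whereas the basal keratin genes Krt5 and Krt14 were at 21189 and 24678 CPM. Of 8 suprabasal markers 5 were lower and none higher, with sums of 6673 and 2618 CPM, and of 12 late differentiation markers 8 were lower and none higher, with sums of 3463 and 1031 CPM. No marker of either list was at 0. Relative to Krt1 and Krt10, Gsdmc had a ratio of 0.954 between libraries, so it was lower by about as much as these keratins. Gsdma, Gsdmd and Gsdme turned direction on this reference, with ratios of 1.66, 1.87 and 1.70. Gsdmc2, whose interval on CPM included 1, was at 2.60. Relative to Krt5 and Krt14, Gsdmc was at 0.274, Gsdma at 0.478, Gsdme at 0.488, Gsdmd at 0.538 and Gsdmc2 at 0.747, so that Gsdma and Gsdme also lay past 2-fold. Gsdma3 was higher on every reference, with 8.07 on Krt5 and Krt14 and 28.1 on Krt1 and Krt10. Which cells hold each gasdermin was not tested.

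**Figure D4:**
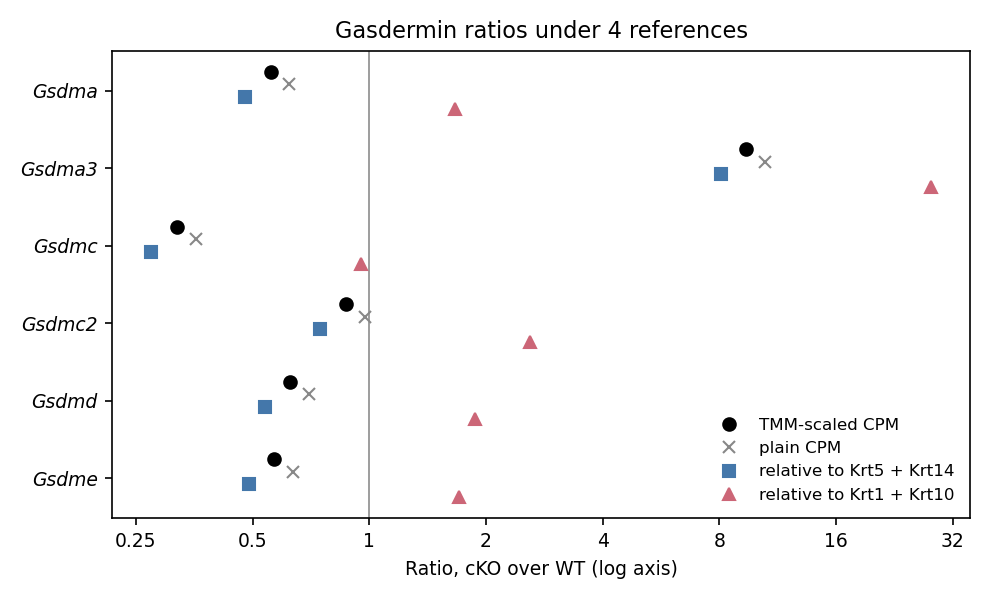
Ratio of the library labelled KAT8 cKO over the library labelled WT (horizontal log axis) for the 6 measured gasdermin genes, with TMM-scaled CPM (circles), plain CPM (crosses), counts relative to Krt5 and Krt14 (squares) and counts relative to Krt1 and Krt10 (triangles). On the last reference Gsdmc lies next to 1 at 0.954, and Gsdma, Gsdmd, Gsdme and Gsdmc2 lie right of 1.

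Genes for proteases that cut gasdermins went in both directions under the cKO label. Of 8 such genes 6 were measured, with 2 lower and 1 higher, against 8.63% lower and 4.56% higher among all measured genes. Their median log2 ratio was -0.03, against 0.01 for all genes. With plain CPM these medians were 0.12 and 0.16, and 1 gene was lower, as Casp4 then lay within 2-fold. The lower ones were the inflammatory caspases that cut gasdermin D, Casp1 (287 and 116 counts, 3.12-fold lower, interval 2.50 to 3.90) and Casp4, which encodes caspase-11 (299 and 165 counts, 2.28-fold lower, interval 1.88 to 2.78). Gzma, a cytotoxic granule protease that cuts human gasdermin B, was higher, with 14 and 61 counts (ratio 3.46, interval 1.91 to 6.70). It is also one of the T cell and natural killer markers, of which 8 of 10 were higher, with sums of 13.0 and 43.2 CPM and none at 0. Of those 8, Zap70, Tcrg-C1, Prf1 and Nkg7 passed the minimum of 1 CPM only under the cKO label, and with a minimum of 5 CPM 3 markers were left, all 3 higher. The neutrophil proteases Elane and Ctsg, named after their values were seen, had 2 and 1, and 0 and 4 counts. There were 1.45 counts of Gsdmd per count of Casp1 under the WT label and 2.84 under the cKO label. This pair was not planned, and the ratio between its values was 1.95 (interval 1.49 to 2.56).

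Inflammasome sensors and adaptors, which recruit and activate caspase-1, had 11 of 13 genes measured, with 4 lower and 1 higher. Among all measured genes 8.63% were lower and 4.56% higher. The median log2 ratio of this list was -0.65, against 0.01 for all measured genes. Nlrp3, the sensor of membrane and ion disturbance, was 3.75-fold lower, with 830 and 279 counts (interval 3.27 to 4.31). Mefv, the gene for pyrin, was 2.38-fold lower, with 497 and 263 counts (interval 2.05 to 2.77). Naip2, a receptor for bacterial secretion proteins, was 4.99-fold lower with 420 and 106 counts. It is one of several related Naip genes, and Naip5, the remaining lower gene, is another. How far reads could tell these genes apart was not examined, so both values are uncertain. With plain CPM or DESeq2 size factors 3 genes were lower, as Naip5 then lay within 2-fold. Nek7, a kinase that licenses Nlrp3, was the higher gene, with 255 and 1367 counts (ratio 4.26, interval 3.72 to 4.88), and 1.60% of its exon length overlapped an antisense gene. These genes are expressed by neutrophils and macrophages as well, whose markers are given above with Gsdmd, and the part of those cells was not tested.

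Genes for the cytokines that leave through gasdermin pores were lower under the cKO label. Of 4 genes, with the brake Il1rn among them, 3 were lower, against 8.63% of all measured genes. The median log2 ratio was -1.89, against 0.01 for all measured genes. Il1a was 5.76-fold lower (741 and 162 counts), Il1b 4.57-fold lower (14267 and 3936 counts) and Il18 3.41-fold lower (203 and 75 counts, interval 2.60 to 4.51). On 11.2% of its exon length Il1a overlapped a gene on the opposite strand, and the labels do not state whether counting used strand. Il1rn, the receptor antagonist gene, lay within 2-fold. The neutrophil, suprabasal and late differentiation markers were lower in the same library, with the counts and sums given above for Gsdmd and the keratins, and their part in the cytokine values was not tested. Set against Il1b within each library, Gsdmd had 0.0292 counts per count of Il1b under the WT label and 0.0836 under the cKO label, a pair chosen after the values were seen (ratio of these 2.86, interval 2.46 to 3.33).

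Transcription factors linked to gasdermin genes lay within 2-fold. Irf1 and Irf2 act on Gsdmd, and Stat6 is linked to the gut C genes. None of the 7 measured passed this size, against 13.2% of all measured genes, which leaves little to read from this count. The median log2 ratio was 0.11, against 0.01 for all measured genes, and the values ran from -0.73 to 0.73. The most abundant, Stat3 and Stat6, had log2 ratios of 0.38 and -0.55.

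**Figure D5:**
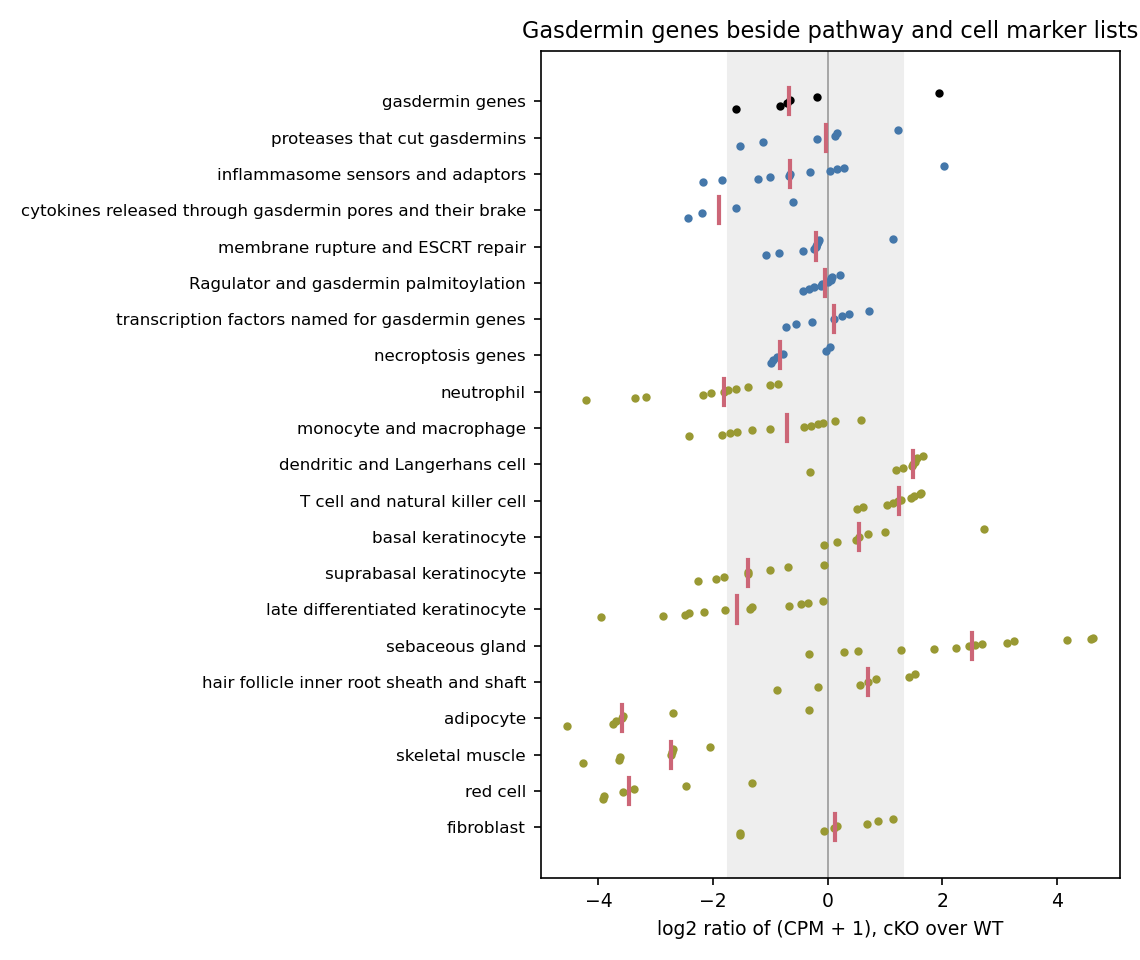
Log2 ratio of (CPM + 1), library labelled KAT8 cKO over library labelled WT (horizontal axis), with 1 point per measured gene, for the gasdermin genes (black), pathway lists (blue) and cell marker lists (olive), and a red bar at each list's median. The grey band holds the middle 95% of all measured genes, from -1.73 to 1.32. Among the gasdermins only Gsdma3, at 1.95, lies outside it.

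Genes beside the gasdermin loci did not all share the direction of their neighbours. On either side of the A genes, Gm12355, Ormdl3 and Psmd3 had log2 ratios of -0.11, 0.33 and 0.03, and Csf3, which encodes a growth factor for neutrophils, went from 442 to 277 counts (log2 ratio -0.97). Psmd3 starts 4.85 kb beyond Gsdma. Beside the C genes, Fam49b, 16.8 kb away, was at -0.60 and Asap1 at 0.35, and the nearest measured genes on the other side, Tsg101-ps and Pvt1, lay 794 and 1398 kb away at -0.14 and -0.01. Next to Gsdmd, Mroh6, at the limit of the 2-fold rule, was 2.14-fold lower (185 and 109 counts, interval 1.68 to 2.73) and Mafa 3.93-fold lower (53 and 17 counts), while Zc3h3 and Naprt were at 0.45 and 0.25. Around Gsdme, Mpp6, Fam221a, Osbpl3 and Cycs lay between -0.47 and 0.45.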

How the data were processed

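Raw counts per Ensembl gene were deposited by the authors for 2 libraries, 1 per label. Per the submitters' processing notes, HISAT2, StringTie 1.3.0, edgeR and the build mm10 were used, without saying for which step. The counting tool, the annotation release, the use of strand and the read length are stated in none of the sources used. Identifiers were matched to GENCODE M21 symbols on GRCm38 (34344 of 34745 genes). Counts were divided by library totals times TMM factors (edgeR 4.0.16, R 4.3.3) of 0.946 (WT) and 1.06 (cKO). Ratios carry exact (Clopper-Pearson) 95% intervals, levels exact Poisson intervals, for counting error only, as the labels name no molecular identifiers to mark PCR copies. A pseudocount of 1 CPM, a minimum of 1 CPM and a floor of 3 counts were used. No test was run, since each label had 1 library. Shared windows and coding identities came from GENCODE transcripts (Biopython 1.88). The calculations were tested on simulated data.

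The members and the 21 gene lists (187 entries, all found) were chosen with earlier results of these data known. All 9 gasdermins were named. From each pathway list, up to 4 genes with the largest log2 ratios of at least 1 were named, or the 2 most abundant where fewer than 2 reached this, as well as the 2 nearest measured genes on each side of a locus. Marker lists are given by counts and sums. The single value of 1 gene of the protease list is not reported here. Alternatives were plain CPM, DESeq2 1.42.0 size factors, upper quartile factors, TMM without the 50 most abundant and mitochondrial genes, pseudocounts of 0.5 and 0.1 CPM, no filter or 5 CPM, and keratin genes as references.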

Additional observations from a re-analysis of the deposited data

How the results depend on the processing

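The count of 2 gasdermins past 2-fold was the same under the other library size scalings, both other pseudocounts and no filter (the count was not made on the keratin references), and was 1 with a minimum of 5 CPM, which leaves out Gsdma3. The ratio of the summed A genes, 0.622, was 0.695 with plain CPM, 0.534 relative to Krt5 and Krt14 and 1.86 relative to Krt1 and Krt10. That of the summed C genes, 0.381, was 0.327 relative to Krt5 and Krt14 and turned to 1.14 relative to Krt1 and Krt10, whose own ratio was 0.334. Of 24 values of the 6 gene ratios under other scalings, 23 stayed within the counting interval, and Gsdma was at 0.622 with plain CPM. The sum of Gsdmc2, Gsdmc3 and Gsdmc4, added after seeing the data, was 2.74 relative to Krt1 and Krt10. Each list median was compared with the medians of its genes' lower and upper counting limits, a range that is not the counting error of the median itself. Of 160 list medians under alternatives 145 stayed within it, and 69 of the 80 under other library size scalings. The medians of 2 lists changed sign, those of the proteases and of the Ragulator list, both 0.12 with plain CPM. The protease median was -0.66 with a minimum of 5 CPM. No paired analysis was possible because each label had 1 library. Depth limits Gsdma2, Gsdma3, Gsdmc3 and Gsdmc4, with at most 6 counts in the library labelled WT.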

Other observations

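Other cell death and membrane repair genes were also measured. Necroptosis genes act in a lytic death that does not need gasdermins. Among these 6 genes 0 lay past 2-fold, against 13.2% of all measured genes. Their log2 ratios were below 0 for 5 of 6, against 49.4% of all measured genes, with a median of -0.82 against 0.01. Cflar, which restrains caspase-8, had 1164 and 734 counts under the WT and cKO labels (log2 ratio -0.98), and the kinase gene Ripk3 397 and 520 (0.05). Mlkl, the pore-forming effector of necroptosis, named after its value was seen, had 358 and 227 counts (log2 ratio -0.95, ratio of CPM 0.503, interval 0.424 to 0.596).

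Ninj1, which carries out the final rupture of the membrane after gasdermin pores form, was 2.13-fold lower under the cKO label, with 1009 and 596 counts (interval 1.93 to 2.36). Of the 10 genes for rupture and ESCRT repair it was the only lower one, against 8.63% of all measured genes. With plain CPM the log2 ratio of Ninj1 was no longer past 1. Chmp3, an ESCRT subunit that helps seal such pores, was 2.25-fold higher (512 and 1450 counts, interval 2.03 to 2.49), and 2.95% of its exon length overlapped an antisense gene. The 10 Ragulator and palmitoylation genes, which support gasdermin D pore assembly, all lay within 2-fold, between -0.43 and 0.22. Among all measured genes 13.2% lay past 2-fold, so little can be read from this. Zdhhc5 and Rragc, the most abundant, were at -0.09 and -0.23.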
